A study of Mus musculus with 6 samples.

Results

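The circadian clock genes described here are Clock, Per1, Per2, Per3, Cry1, Cry2, Nr1d1, Nr1d2, Dbp and Tef, 10 of the 41079 genes in the expression table, and each was found by its gene symbol. They were measured by RNA sequencing in D10 cells, a mouse CD4+ helper T cell line that is a single clone, in 3 cold-acclimated libraries (24 h at 26°C) and 3 non-acclimated libraries (24 h at 37°C), and the labels name no other agent in either group. The study used these libraries to ask how the transcriptome of T cells differs after cold acclimation. The labels name lymph node as the tissue of the line and RPMI 1640 as its medium, and they speak of old and new batches of extracted RNA that are not tied to single libraries. The hour of collection and any synchronisation of the cells were not given in the sources used here, and with 1 time point per library a change in level and a shift in the phase of a rhythm cannot be told apart.

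In mammals the circadian clock is a transcriptional feedback loop. CLOCK pairs with BMAL1, binds E-box sequences and turns on the Period and Cryptochrome genes, whose proteins return to the nucleus and block the CLOCK and BMAL1 pair. In a further loop the REV-ERB receptors, encoded by Nr1d1 and Nr1d2, repress Bmal1 where the ROR receptors activate it, and the PAR bZIP factors DBP, TEF and HLF act at D-box sequences that the repressor NFIL3 also binds. Lymphocytes carry this loop, and temperature is a known time cue for cultured mammalian cells.

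The elements named above were looked for in the 10 promoters, because they are the sequences through which these genes are known to control each other. The promoter was taken as 300 bases, from 250 bases before to 50 bases from the start of the canonical transcript in the GENCODE annotation of GRCm39, and both strands were read. The E-box (CACGTG) was present in the promoters of Per1, Cry1 and Tef, 3 of 10, and in 7.82% of 21757 promoters of protein-coding genes. The related E-prime box (CACGTT) was present in those of Per2, Cry1, Cry2 and Nr1d1, 4 of 10, against 4.996% of all promoters. The D-box (TTANGTAA) was present in those of Per2 and Per3, against 2.30%, and the element of REV-ERB and ROR (TAGGTCA) in that of Dbp, against 2.49%. The cAMP response element (TGACGTCA) was present in 0 of 10 and in 2.45% of all promoters. The E-box and the E-prime box differ in their last letter only, and a match describes these letters alone. The sites in the genes that the comparisons below turn on are given on the strand of the gene, 5′ to 3′, with the motif in capitals (AACGTG is the E-prime box read from the other strand). They lie at chr11:68989234-68989263 on the plus strand (Per1), chr10:85020961-85020990 on the minus strand (Cry1), chr2:92264563-92264592 on the minus strand (Cry2), chr11:98666214-98666243 on the minus strand (Nr1d1) and chr15:81695465-81695494 on the plus strand (Tef).
Per1 E-box: accccttaacgaCACGTGggccctcaattg
Cry1 E-box: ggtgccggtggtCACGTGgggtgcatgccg
Cry2 E-prime box: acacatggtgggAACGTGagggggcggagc
Nr1d1 E-prime box: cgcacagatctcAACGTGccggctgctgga
Tef E-box: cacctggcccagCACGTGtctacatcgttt
Counted from the transcript start, the last base of the motif lay at position -17 in Per1, -24 in Cry1, -101 in Cry2, -67 in Nr1d1 and -133 in Tef. The starts used for Per1 (chr11:68989268), Tef (chr15:81695615) and Nr1d1 (chr11:98666159) lie inside the gene spans given with their levels below. For Per1 and Tef all 300 bases do, so the sequence before the outer start of these genes was not read.

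Levels are in TPM, in which reads are divided by gene length and each library sums to 1000000, so a value is a share of a library's transcripts and not an amount per cell. The libraries held between 16899628 and 31290854 reads, recovered from the steps of the TPM values. The label of T cell was met by the summed TPM of 11 T cell markers, 3367 to 4608 in non-acclimated and 4161 to 4877 in cold-acclimated cells, while 5 B cell markers summed to at most 1.11. Cd4 itself was near 0 in replicates 1 and 2 of both groups (0.0351 to 1.30 TPM), while replicate 3 held 310 TPM without and 328 TPM with acclimation, so 4 of the 6 libraries go against the CD4+ label, and Cd5 had 1 read in all. Hba-a1, a globin gene, was also highest in replicate 3 (485 and 473 TPM, against 60.8 to 189 TPM in the others), with Hbb-bs at 0 in every library. Macrophage markers summed to 15.9 and 21.2 TPM in replicate 3 and to at most 3.39 TPM elsewhere. Replicates 3 stood apart from the rest on the second principal component, with 25.2% of the variance, so results for some genes are also given without them. In such bulk libraries, fewer cells with a transcript and less of it per cell cannot be told apart.

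Of the 10 clock genes, 8 reached the minimum mean of 1 TPM and were tested by limma on log2(TPM + 1) among 12227 genes. A gene is called where its adjusted p (Benjamini-Hochberg) was under 0.05 and its log2 fold change was 1 or more in either direction. Cry2 and Tef rose after 24 h at 26°C, which is 2 of 8, where 2.63% of all tested genes were called higher. Of the 8 genes, 0 were called lower by limma, where 16.0% of all tested genes were; at an unadjusted p under 0.05, 0 were lower and 3 higher (Per1, Cry2 and Tef), where 30.0% and 7.75% of all tested genes were. Limma voom on the recovered reads called 0 lower and 2 higher, Cry2 and Tef again, against 13.9% and 3.34% of all tested genes. The TPM of the groups did not overlap for Per1, Cry2 and Tef, all higher in the cold, against 9.69% of tested genes that were higher without overlap and 31.4% that were lower. The median log2 fold change was 0.70 over the 8 genes and -0.34 over all tested genes. When the TPM were rescaled by median of ratios, these medians were 1.08 and 0.03, a like shift of both, and Per1, Cry2 and Tef were called higher and 0 lower, against 6.87% and 8.6% of all tested genes. With the replicate number as a block, Cry2, Nr1d2 and Tef were called higher and 0 lower, against 3.75% and 21.9%. Without the filter on low values 9 clock genes were tested among 21195, and 0 were called in either direction, against 0.868% higher and 5.29% lower. The 8 tested genes are those that passed the filter, so these counts describe them alone and leave out Per2 and Per3.

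**Figure D1:**
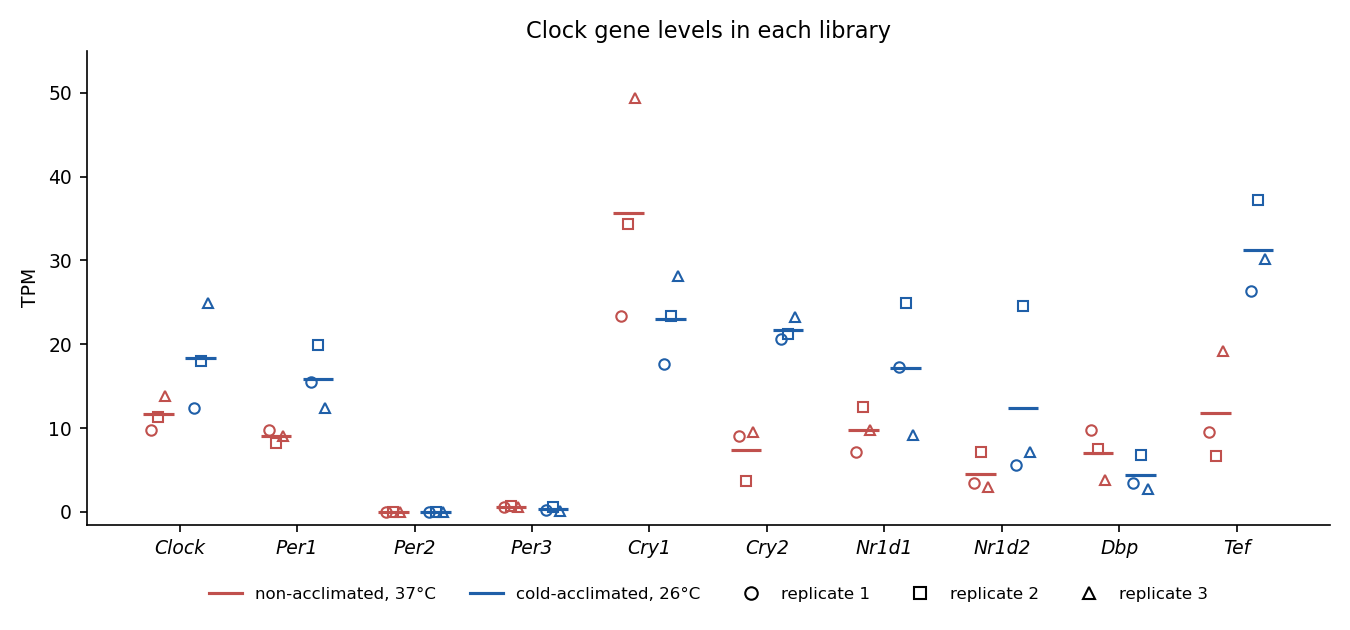
Levels of the 10 clock genes in TPM (vertical axis) in each library, red for non-acclimated (37°C) and blue for cold-acclimated (26°C) cells, with a symbol for each replicate and a bar at the group mean. The red and blue symbols separate for Per1, Cry2 and Tef, while those of Clock, Cry1, Nr1d1, Nr1d2 and Dbp overlap, Per3 lies under 1 TPM and Per2 at 0.

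Clock (chr5:76357715-76452675, minus strand), the activator of the loop, had a higher mean in the cold but overlapped between the groups. Its level was 9.73, 11.3 and 13.8 TPM in non-acclimated replicates 1, 2 and 3, with a mean of 11.6 ± 2.06 (SD, n = 3). In cold-acclimated replicates 1, 2 and 3 it was 12.3, 17.9 and 25.0 TPM, with a mean of 18.4 ± 6.32 (SD, n = 3). The lowest cold-acclimated library lay under the highest non-acclimated library, although each cold-acclimated replicate was above the non-acclimated replicate of its own number, by 1.27, 1.58 and 1.81 times. The log2 fold change was 0.58 (SE 0.31, 95% interval -0.14 to 1.30), which did not pass the threshold (limma, adjusted p = 0.215). With the replicate number as a block the 95% interval was 0.04 to 1.12, and Clock was not called (limma, adjusted p = 0.0861). Replicate number took 47.2% of the sum of squares of log2(TPM + 1), and temperature 47.0%.

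The 3 Period genes, which encode partners of the Cryptochromes in the repressor complex, had very different levels. Per1 (chr11:68985934-69000791, plus strand) was at 9.80, 8.27 and 9.02 TPM in the non-acclimated replicates, with a mean of 9.03 ± 0.763 (SD, n = 3). After cold acclimation Per1 was at 15.5, 19.9 and 12.4 TPM, with a mean of 15.9 ± 3.77 (SD, n = 3). Every cold-acclimated library was above every non-acclimated library, and temperature took 77.6% of the sum of squares. The log2 fold change of Per1 was 0.73 (SE 0.26, 95% interval 0.12 to 1.34), short of both thresholds (limma, adjusted p = 0.0838). With median of ratios scaling Per1 was called, at a log2 fold change of 1.11 (limma, adjusted p = 0.0377), and without replicate 3 in both groups it was 0.89 (limma, adjusted p = 0.0435), under the fold threshold.

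Per2 (chr1:91343699-91387028, minus strand) was listed at 0 in each of the 6 libraries. A count of 0 allows up to 3 reads, which at the canonical transcript's 5836 bases is 0.0427 to 0.0750 TPM, the limit covering counting error only. Genes on either side of it had reads: Hes6, 797 bases away, was at 5.09 to 7.46 TPM, and Traf3ip1, 35282 bases away, at 1.66 to 12.9 TPM. Gene families that every cell uses were taken by symbol, which can include members that not every cell uses. Few of their genes were listed at 0 in all libraries. These were 3 of 82 cytosolic ribosomal protein genes (Rpl10l, Rpl39l and Rps4l) and 2 of 39 proteasome subunit genes (Psma8 and Psmb11). They included 0 of 13 RNA polymerase II subunit genes and 0 of 37 complex I subunit genes. Why Per2 is listed at 0 was not tested, and no fold change is given.

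Per3 (chr4:151081475-151129167, minus strand) was low in both groups and lower in the cold. It had 0.637, 0.664 and 0.644 TPM in the non-acclimated replicates, from 40, 50 and 71 reads. In the cold-acclimated replicates it had 0.214, 0.558 and 0.150 TPM, from 17, 46 and 14 reads. The groups did not overlap, but cold-acclimated replicate 2 lay close to the non-acclimated values, at 0.840 times its own counterpart, against 0.337 and 0.232 times for replicates 1 and 3. After median of ratios scaling cold-acclimated replicate 2 (0.662) lay above every non-acclimated library (0.547 to 0.564), so the groups then overlapped. Per3 was under the filter on low values, and in the fit without that filter its log2 fold change was -0.35 (95% interval -0.67 to -0.03; limma, adjusted p = 0.163).

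The Cryptochromes encode the repressors that bind the CLOCK and BMAL1 pair directly, and the 2 genes had opposite signs of change, with Cry2 past the threshold and Cry1 short of it. Cry2 (chr2:92233991-92264426, minus strand) was at 9.09, 3.65 and 9.52 TPM in the non-acclimated replicates, with a mean of 7.42 ± 3.28 (SD, n = 3). In cold-acclimated cells Cry2 was at 20.6, 21.2 and 23.3 TPM, with a mean of 21.7 ± 1.41 (SD, n = 3). The cold-acclimated libraries were all above the non-acclimated ones and close to each other, and the widest gap between the groups came in replicate 2, where the non-acclimated library was lowest. Cry2 rose by a log2 fold change of 1.52 (SE 0.36, 95% interval 0.69 to 2.35; limma, adjusted p = 0.0255), and by 2.26, 5.82 and 2.45 times within replicates 1, 2 and 3. The call was lost with 5 libraries when non-acclimated replicate 1 (adjusted p = 0.0602) or 2 (0.0721) or cold-acclimated replicate 1 (0.0827) or 2 (0.0804) was left out, and in the fit without a filter (0.0607), all by limma. Without replicate 3 in both groups, the libraries with Cd4, Cry2 was at 1.68 (limma, adjusted p = 0.0234). Without replicate 1 in both groups Cry2 was at 1.73 (limma, adjusted p = 0.185), and without replicate 2 at 1.15 (limma, adjusted p = 0.208). Of all tested genes, 0 were called in either of those fits.

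D930015M05Rik, an RNA gene on the opposite strand, covers 23417 bases of the Cry2 locus, introns included, while the length behind the TPM of Cry2 was 4138 bases. How far the exons of the 2 genes overlap was not computed. D930015M05Rik had 0.613 to 2.93 TPM in non-acclimated and 5.42 to 6.59 TPM in cold-acclimated libraries. Its log2 fold change was 1.23 (limma, adjusted p = 0.0643). The libraries were made with a kit that keeps strand, but the strand setting of the counting was not given in the sources used here. Where exons of the antisense gene and of Cry2 overlap, their reads therefore cannot be told apart.

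Cry1 (chr10:84967564-85020918, minus strand) was the most abundant of the clock genes at 37°C. It was at 23.4, 34.4 and 49.3 TPM in the non-acclimated replicates, with a mean of 35.7 ± 13.01 (SD, n = 3). In the cold-acclimated replicates it was at 17.7, 23.3 and 28.2 TPM, with a mean of 23.1 ± 5.25 (SD, n = 3). In both groups replicate 1 was lowest and replicate 3 highest, and the groups overlapped, while each cold-acclimated library was under its own counterpart, at 0.755, 0.678 and 0.571 times. The log2 fold change of Cry1 was -0.57 (SE 0.33, 95% interval -1.34 to 0.19), which did not pass the threshold (limma, adjusted p = 0.246), and replicate number took 57.3% of the sum of squares. With median of ratios scaling it was -0.17 (95% interval -0.88 to 0.53). With the replicate number as a block the 95% interval was -1.07 to -0.07, and Cry1 was not called (limma, adjusted p = 0.0737).

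The REV-ERB genes had higher means in the cold, and neither passed the threshold in the main fit, which left the pairing by replicate number out. Nr1d1 (chr11:98658758-98666233, minus strand), which encodes REV-ERBα, was at 7.15, 12.5 and 9.79 TPM in the non-acclimated replicates, with a mean of 9.81 ± 2.67 (SD, n = 3). After cold acclimation Nr1d1 was at 17.3, 24.9 and 9.17 TPM, with a mean of 17.1 ± 7.87 (SD, n = 3). Replicates 1 and 2 were 2.43 and 1.99 times higher in the cold, but replicate 3 was at 0.937 times its counterpart. The log2 fold change was 0.68 (SE 0.39, 95% interval -0.24 to 1.59; limma, adjusted p = 0.250). Without cold-acclimated replicate 3 it was 1.04 and called (limma, adjusted p = 0.0493), and without replicate 3 in both groups it was 1.06 and not called (limma, adjusted p = 0.0577). The end of Nr1d1 overlaps Thra on the opposite strand by 1075 bases, and Thra had a log2 fold change of -0.70 (limma, adjusted p = 0.150).

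Nr1d2 (chr14:4230549-4265639, plus strand), which encodes REV-ERBβ, was at 3.41, 7.13 and 2.96 TPM in the non-acclimated replicates, with a mean of 4.50 ± 2.29 (SD, n = 3). In the cold it was at 5.64, 24.5 and 7.10 TPM, with a mean of 12.4 ± 10.5 (SD, n = 3). Replicate 2 was highest in both groups, and cold-acclimated replicate 2 was far above the other 2 cold-acclimated libraries, so the groups overlapped although each replicate was higher in the cold, by 1.65, 3.44 and 2.40 times. The log2 fold change was 1.09 (SE 0.55, 95% interval -0.19 to 2.37; limma, adjusted p = 0.191), and it was 0.49 without cold-acclimated replicate 2 (limma, adjusted p = 0.478). With the replicate number as a block in the fit, which removes the 55.1% of the sum of squares that lay between replicates, Nr1d2 was called higher (limma, adjusted p = 0.0266).

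The PAR bZIP genes encode output factors that act on the same D-box, and again the 2 genes had opposite signs. Tef (chr15:81686874-81711064, plus strand) was at 9.50, 6.67 and 19.1 TPM in the non-acclimated replicates, with a mean of 11.8 ± 6.54 (SD, n = 3). In the cold-acclimated replicates it was at 26.3, 37.2 and 30.1 TPM, with a mean of 31.2 ± 5.52 (SD, n = 3). The groups did not overlap, and non-acclimated replicate 3 came closest to the cold-acclimated range. Tef rose by a log2 fold change of 1.44 (SE 0.38, 95% interval 0.56 to 2.32; limma, adjusted p = 0.0361), and by 2.77, 5.58 and 1.57 times within replicates 1, 2 and 3. The call was lost without non-acclimated replicate 1 (adjusted p = 0.109) or 2 (0.118) or cold-acclimated replicate 1 (0.0888) or 2 (0.119), and without a filter (0.0784), all by limma. Without replicate 3 in both groups Tef was at 1.85 (limma, adjusted p = 0.00740). Without replicate 1 in both groups it was at 1.47 (limma, adjusted p = 0.233), and without replicate 2 at 1.00 (limma, adjusted p = 0.303), not called in either.

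Dbp (chr7:45354658-45359579, plus strand) was at 9.76, 7.48 and 3.83 TPM in the non-acclimated replicates, with a mean of 7.02 ± 2.99 (SD, n = 3). After cold acclimation it was at 3.47, 6.83 and 2.79 TPM, with a mean of 4.36 ± 2.16 (SD, n = 3). The groups overlapped, and each cold-acclimated library was under its counterpart, at 0.355, 0.913 and 0.730 times. The log2 fold change of Dbp was -0.58 (SE 0.41, 95% interval -1.54 to 0.39; limma, adjusted p = 0.351), from 78 to 183 reads per library. Its last 693 bases overlap Sphk2 on the opposite strand, which had a log2 fold change of -0.98 (limma, adjusted p = 0.0467), and reads there cannot be told apart without the strand setting.

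**Figure D2:**
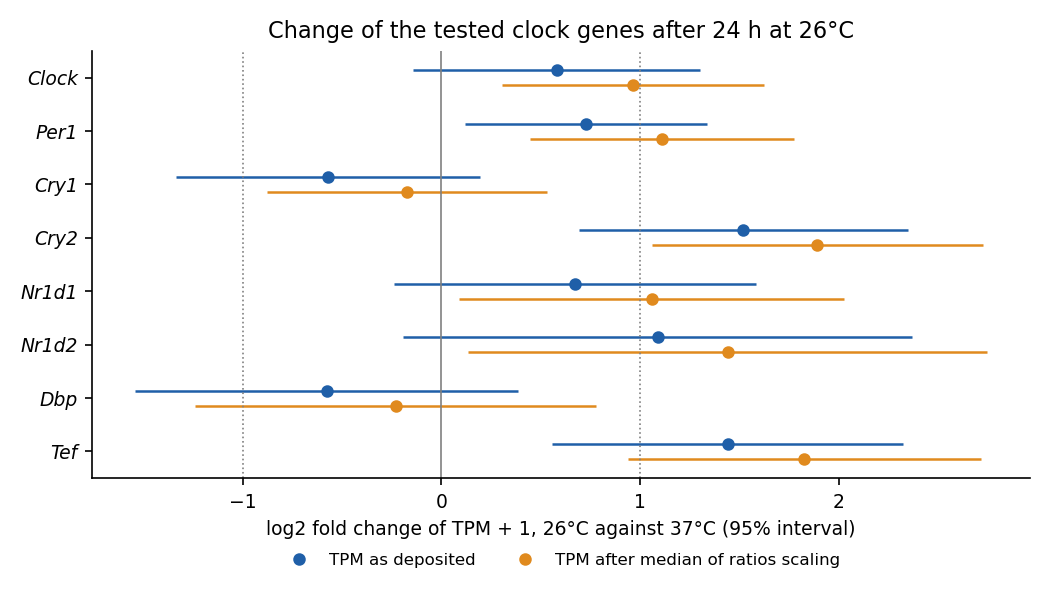
Log2 fold changes of TPM + 1 (horizontal axis, cold-acclimated against non-acclimated) of the 8 tested clock genes with their 95% intervals, from the TPM as deposited (blue) and after median of ratios scaling (orange); dotted lines mark a log2 fold change of 1 in size. The intervals of Per1, Cry2 and Tef lie above 0 with both scalings, those of Clock, Nr1d1 and Nr1d2 only after scaling, and those of Cry1 and Dbp span 0 with both.

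Within each replicate number, Clock, Per1, Cry2, Nr1d2 and Tef were higher in the cold in 3 of 3 replicates, which is 5 of 8 tested clock genes, against 18.2% of all tested genes. Cry1 and Dbp were lower in 3 of 3 replicates, 2 of 8, against 47.9% of all tested genes. After median of ratios scaling, 6 of 8 were higher in every replicate, Nr1d1 included, against 34.6% of tested genes, and 0 of 8 were lower in every replicate, against 32.3%. The direction of Cry1 and Dbp in single replicates thus changed with the scaling, while the sign of each fitted fold change was the same under both.

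Ratios between members of a pair do not depend on how libraries are scaled, and 4 pairs with reads in every library were compared. The TPM ratio of Cry1 to Cry2 was 2.57, 9.43 and 5.18 in the non-acclimated replicates and 0.858, 1.10 and 1.21 in the cold-acclimated ones. Cry1 thus exceeded Cry2 in every library at 37°C, and at 26°C the TPM of the 2 genes were close to each other. The mean log2 ratio was 2.26 lower in the cold, falling from 2.32 ± 0.94 to 0.06 ± 0.25 (SD, n = 3 each), without overlap (two-sided exact permutation test, p = 0.1, the smallest that 3 against 3 libraries can give, and 0.133 after Benjamini-Hochberg adjustment over 4 pairs).

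The ratio of Dbp to Tef was 1.03, 1.12 and 0.200 in the non-acclimated replicates and 0.132, 0.184 and 0.0928 in the cold-acclimated ones. Dbp and Tef were thus at like levels in non-acclimated replicates 1 and 2, and Dbp was under Tef in non-acclimated replicate 3 and in every cold-acclimated library. The mean log2 ratio went from -0.71 ± 1.40 to -2.93 ± 0.49 (SD, n = 3 each), without overlap (two-sided exact permutation test, p = 0.1, adjusted p = 0.133). The ratio of Clock to Cry1, activator to repressor, was 0.416, 0.330 and 0.280 in the non-acclimated and 0.699, 0.769 and 0.886 in the cold-acclimated replicates. Clock stayed under Cry1 in all 6 libraries, by less in the cold, and the mean log2 ratio rose by 1.21 without overlap (two-sided exact permutation test, p = 0.1, adjusted p = 0.133). The ratio of Nr1d1 to Nr1d2 was 2.09, 1.75 and 3.31 in the non-acclimated and 3.08, 1.02 and 1.29 in the cold-acclimated replicates, which overlapped (two-sided exact permutation test, p = 0.4, adjusted p = 0.4). The exact permutation test cannot go below 0.1 with 3 against 3 libraries, so it could not pass 0.05 for any of these 4 ratios. The ratio of Per1 to Per2 had no value, since Per2 was at 0.

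**Figure D3:**
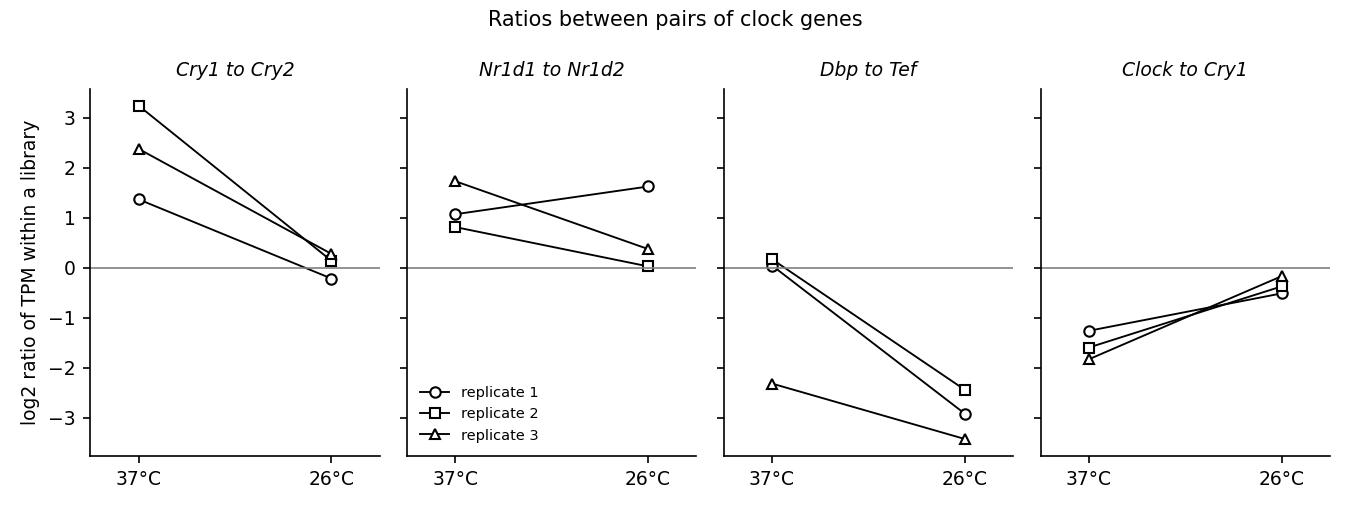
Log2 ratio of TPM between 2 clock genes in the same library (vertical axis) at 37°C and 26°C, with a line joining libraries of the same replicate number. All 3 lines fall for Cry1 to Cry2 and for Dbp to Tef, all 3 rise for Clock to Cry1, and those of Nr1d1 to Nr1d2 go in different directions.

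By mean TPM, the order at 37°C was Cry1, Tef, Clock, Nr1d1, Per1, Cry2, Dbp, Nr1d2, Per3 and Per2. Cry1 was above the range of every other clock gene there, Per3 was under that of the 8 higher ones, and each pair of neighbours from Tef to Nr1d2 overlapped. At 26°C the order was Tef, Cry1, Cry2, Clock, Nr1d1, Per1, Nr1d2, Dbp, Per3 and Per2, and each pair of neighbours from Tef to Dbp overlapped. Cry2 thus stood behind 5 of the other clock genes at 37°C and behind 2 at 26°C. The lengths by which reads were divided differ from those of the canonical transcripts, by 1.79 times for Nr1d2 and 1.65 times for Tef and not at all for Cry2, so the order between genes depends on them while a change within a gene does not.

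The genes with the most similar pattern over the 6 libraries were looked for among 9743 genes averaging at least 5 TPM, by Pearson's r of log2(TPM + 1), as a description. Zfp654 (r = 0.990) and Pkd1l3 (r = 0.985) were nearest to Cry2, and 32 genes had r above 0.95 with it. For Tef they were Gm22455 (r = 0.997) and Snord110 (r = 0.991), a small nucleolar RNA gene, with 40 genes above 0.95. Snord110 was at only 2.47 and 2.06 TPM in non-acclimated replicates 1 and 2. No minimum of reads was set, and TPM divide reads by length, so a short gene can reach 5 TPM on few reads. The points share libraries, groups and scaling.

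Beyond these 10 genes, 43 genes of the clock pathway were listed by role, and 35 of them were tested. Of these 35, 0 were called higher and 3 lower by limma, where 2.63% and 16.0% of all tested genes were. Those 3 were Nono, Wee1 and Csnk2a1. At an unadjusted p under 0.05, 3 were higher and 8 lower (limma), against 7.75% and 30.0% of all tested genes. The 3 higher were Usp7, Wdr5 and Cirbp, and the 8 lower were Csnk1d, Csnk1a1, Csnk2a1, Timeless, Nono, Ncor1, Wee1 and Tsc22d3. Limma voom called 1 higher (Cirbp) and 2 lower (Nono and Wee1), against 3.34% and 13.9%. The median log2 fold change of the 35 genes was -0.11, against -0.34 over all tested genes. With the replicate block 1 was called higher (Cirbp) and 6 lower (Csnk2a1, Timeless, Tipin, Nono, Wee1 and Tsc22d3), against 3.75% and 21.9%. With median of ratios scaling 3 were called higher (Usp7, Wdr5 and Cirbp) and 0 lower, against 6.87% and 8.6%.

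Nono, an RNA-binding protein that partners the PER proteins, was at 489, 497 and 486 TPM in the non-acclimated and 159, 156 and 292 TPM in the cold-acclimated replicates, and fell by 1.34 on the log2 scale (limma, adjusted p = 0.0205). Wee1, a kinase that holds cells before mitosis and a known E-box target of the clock, was at 40.3, 45.3 and 29.0 TPM against 19.7, 11.0 and 18.3 TPM and fell by 1.19 (limma, adjusted p = 0.0330). Csnk2a1, a catalytic subunit of casein kinase II, was at 33.1, 24.9 and 19.5 TPM against 9.79, 12.2 and 13.6 TPM and fell by 1.04 (limma, adjusted p = 0.0376). The groups did not overlap for any of the 3. Of the 35 genes, 9 were lower and 4 higher without overlap, against 31.4% and 9.69% of all tested genes. Csnk2a2, the other catalytic subunit of casein kinase II, was at 44.1, 36.6 and 40.5 TPM against 60.6, 57.9 and 45.4 TPM, higher without overlap, and was not called (log2 fold change 0.42, 95% interval -0.10 to 0.94; limma, adjusted p = 0.215). Each of the 3 called genes lost its call by limma without non-acclimated replicate 1 or 2 or cold-acclimated replicate 1 or 2, at adjusted p of 0.0660 to 0.0844 for Nono, 0.0730 to 0.124 for Wee1 and 0.102 to 0.131 for Csnk2a1. None of the 3 was called after median of ratios scaling, where their log2 fold changes were -0.93, -0.80 and -0.65 in that order.

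Bmal1, the partner of CLOCK, varied mostly between replicate numbers. It was at 0.640, 3.22 and 0.0558 TPM in the non-acclimated and 0.0836, 2.23 and 0.0455 TPM in the cold-acclimated replicates. Replicate 2 held the highest level in both groups, and 93.6% of the sum of squares lay between replicates and 4.17% between temperatures. Within each replicate number it was lower in the cold, at 0.131, 0.694 and 0.816 times, as were 47.9% of all tested genes. Its log2 fold change was -0.33 (95% interval -1.83 to 1.16; limma, adjusted p = 0.748). The length behind its TPM was 19362 bases, against 4266 bases for the canonical transcript, which lowers its level beside those of other genes. Bmal2, a paralogue of Bmal1, and Npas2, a paralogue of Clock, were listed at 0 in every library, as were the repressor Bhlhe41 and Fbxl21, a ubiquitin ligase subunit.

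Rora, which encodes an activator at the elements that REV-ERB represses, had 0.00223 TPM in cold-acclimated replicate 1 and was listed at 0 in the other libraries.

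Hlf, the remaining PAR bZIP gene, was at 8.98, 18.6 and 39.1 TPM in the non-acclimated and 10.8, 42.9 and 14.2 TPM in the cold-acclimated replicates, with no common direction and a log2 fold change of 0.00 (95% interval -1.47 to 1.47; limma, adjusted p = 0.999). Nfil3, their opponent at the D-box, was far more abundant, at 196, 101 and 165 TPM against 157, 80.7 and 116 TPM, with a log2 fold change of -0.38 that did not pass the threshold (95% interval -1.18 to 0.43; limma, adjusted p = 0.469). Its sign changed with median of ratios scaling, to a log2 fold change of 0.03, with replicates 1 and 2 higher and replicate 3 lower in the cold. Bhlhe40, a repressor that competes for E-boxes, was at 26.7, 76.5 and 27.7 TPM against 20.8, 31.4 and 14.3 TPM and likewise did not pass it (log2 fold change -0.84, 95% interval -1.92 to 0.25; limma, adjusted p = 0.233). With the replicate block its interval was -1.43 to -0.25 (limma, adjusted p = 0.0395), under the fold threshold and so not called. The blocked intervals of Hlf and Nfil3 still spanned 0.

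**Figure D4:**
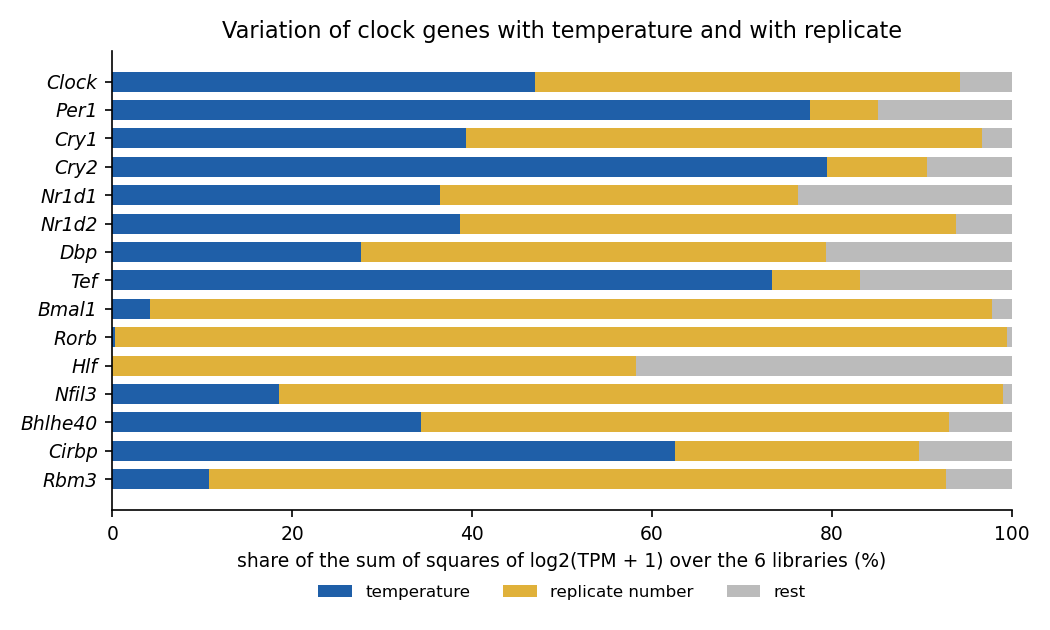
Share of the sum of squares of log2(TPM + 1) over the 6 libraries (horizontal axis, percent) that lay between temperatures (blue), between replicate numbers (yellow) and in the rest (grey), for the tested clock genes and 7 other pathway genes. Temperature takes the widest bar for Per1, Cry2, Tef and Cirbp, and replicate number takes it for the other genes drawn, among them Bmal1 with 93.6%.

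Temperature took 79.4% of the sum of squares in Cry2, 77.6% in Per1 and 73.4% in Tef. In the other 5 tested clock genes it took 27.7% (Dbp) to 47.0% (Clock), and replicate number 39.8% (Nr1d1) to 57.3% (Cry1). Replicate number also separates the libraries by Cd4 and Hba-a1, and the part of those differences in the clock genes was not tested.

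The cold-inducible RNA-binding proteins CIRBP and RBM3 are known to rise in cooled mammalian cells, and CIRBP to bind transcripts of clock genes, Clock among them. Cirbp was at 62.4, 53.6 and 16.2 TPM in the non-acclimated and 123, 135 and 94.7 TPM in the cold-acclimated replicates, higher without overlap, as were 9.69% of all tested genes. Its log2 fold change was 1.59 (SE 0.49, 95% interval 0.45 to 2.72), just short of the threshold (limma, adjusted p = 0.0553), and it was called with the replicate block (adjusted p = 0.0121), with median of ratios scaling (0.0357) and with limma voom (0.0397). Without replicate 3 in both groups it was 1.14 and called (limma, adjusted p = 0.0123). Without replicate 1 in both groups it was 1.90 (limma, adjusted p = 0.202), and without replicate 2 it was 1.72 (limma, adjusted p = 0.248), not called in either. Rbm3 was at 93.1, 199 and 271 TPM against 146, 190 and 503.8 TPM, which overlapped, with a log2 fold change of 0.49 (95% interval -0.78 to 1.77; limma, adjusted p = 0.557). Leaving out cold-acclimated replicate 3 gave -0.04, leaving out non-acclimated replicate 1 gave 0.06 and median of ratios scaling gave 0.90, with no call in any of these (limma).

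**Figure D5:**
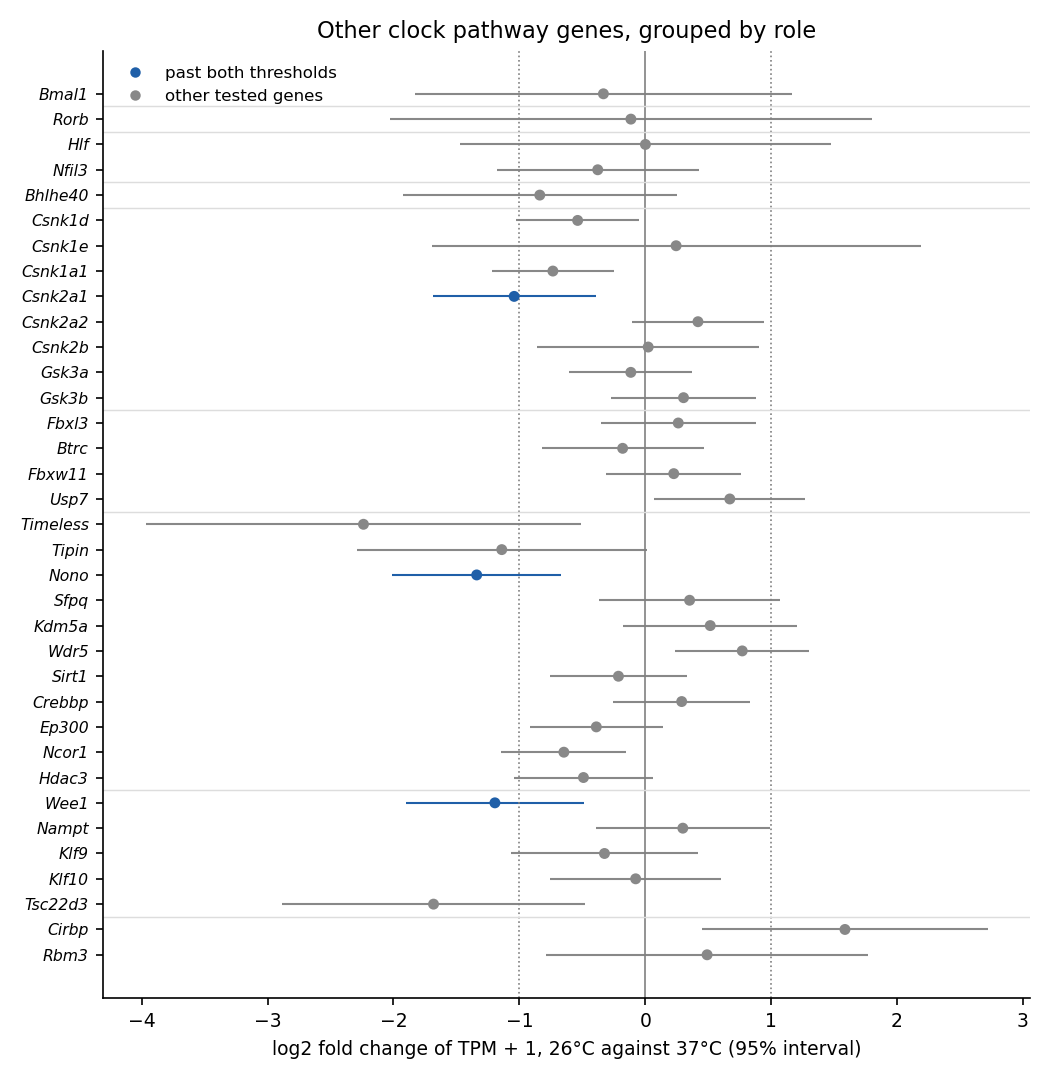
Log2 fold changes of TPM + 1 (horizontal axis, cold-acclimated against non-acclimated) with 95% intervals for the 35 other tested clock pathway genes, in blocks by role divided by grey lines; dotted lines mark a log2 fold change of 1 in size. The genes past both thresholds (blue) are Csnk2a1, Nono and Wee1, all to the left of -1.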

How the data were processed

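Poly(A)+ RNA of 6 libraries was sequenced with paired ends. Per the labels, the submitters' processing notes name FastQC 0.11.7, Trimmomatic 0.38, HISAT2 2.1.0, featureCounts 1.6.3 and GRCm39. The annotation release, how strand was set in counting and how lengths entered the TPM were not given in the sources used here. The values analysed are TPM per gene as deposited by the authors.

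Read numbers behind the TPM were recovered as whole multiples of a gene's smallest step, within 1e-06 of a read for 21195 of 21195 genes above 0. Differential expression was tested with limma 3.58.1 (R 4.3.3) on log2(TPM + 1), with the prior variance trended on the mean, in 12227 genes averaging 1 TPM or more. A pseudocount of 1 understates changes of low genes. Alternatives were a pseudocount of 0.1, no filter, median of ratios scaling, a replicate block, limma voom on recovered reads, and leaving out libraries. A count model was not the main test because the deposited values are TPM and not counts, and the recovered reads entered limma voom only. The study's own test, DESeq2 on counts, was not used here.

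Same-numbered libraries deviated together from their group means, with correlations across genes of 0.48, 0.50 and 0.51, against -0.41 to 0.02 for different numbers, which pairs them by number. The main fit had no block, and the blocked fit was an alternative. The main calls and the exact permutation test of the ratios therefore leave this pairing out. Beside the main fit, the block added calls of Nr1d2 and Cirbp (higher) and of Timeless, Tipin and Tsc22d3 (lower). The labels call them biological replicates. The procedure was run on simulated data that held no differences between replicate numbers, unlike these libraries, and the outcome is not reported here. Ratios were compared by exact permutation over libraries with Python 3.11.15 and scipy 1.17.1.

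The members and lists were chosen with earlier results of these data known. The genes named are the 10 clock genes, Bmal1, Npas2, Rora, Hlf, Nfil3, Bhlhe40, Cirbp, Rbm3, every other listed pathway gene past both thresholds, and the 2 genes most like each called clock gene. Other pathway genes, markers and neighbouring genes were named after their values were seen. Some listed genes are not reported here.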

Additional observations from a re-analysis of the deposited data

How the results depend on the processing

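Of the 8 tested clock genes, each kept the sign of its fold change under all 14 alternatives, those that leave out a replicate number in both groups having been chosen after seeing the data. The replicate block and the fit without a filter leave the fold change of a gene as it was. The sign could therefore not change in those fits, and they bear on the adjusted p only. The 2 called higher became 0 without a filter on low values, where more genes are tested, 0 to 3 when a single library was left out and 0 to 2 when a replicate number was; 0 were called lower in any setting. The replicate block called 3 clock genes higher, Nr1d2 being added, and 1 other pathway gene higher and 6 lower. Other pathway genes called higher, 0 as reported, were 3 with median of ratios scaling, 1 with voom, 0 with a single library left out and 0 to 1 with a replicate number left out; those called lower, 3 as reported, were 1 without a filter, 0 with median of ratios scaling, 0 to 5 with a single library left out and 0 to 6 with a replicate number left out. Over all genes, 321 were called higher and 1954 lower; the counts were 184 and 1121 without a filter, 840 and 1052 with median of ratios scaling, 59 to 458 and 332 to 2734 with a single library left out, and 0 to 659 and 0 to 3107 with a replicate number left out. The log2 ratios kept their direction, with a pseudocount of 1 and without each replicate number, at -2.60 to -1.84 (Cry1 to Cry2), -2.79 to -1.86 (Dbp to Tef), 0.99 to 1.44 (Clock to Cry1) and -1.07 to -0.12 (Nr1d1 to Nr1d2). With fewer libraries the tests have fewer degrees of freedom. Without replicate 3 in both groups the log2 fold changes of Clock, Cry1, Nr1d2 and Dbp were 0.47, -0.46, 1.12 and -0.69. None of these was called (limma, adjusted p = 0.246, 0.262, 0.237 and 0.183). Per3 rested on 14 to 71 reads per library.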
